A study of Homo sapiens with 16 samples.

Results

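TXNIP, its arrestin-domain relatives, the MondoA transcription factors and thioredoxin were followed in human pancreatic progenitor cells treated with latrunculin B (LatB), a drug that depolymerises actin. The 10 genes are TXNIP, ARRDC1, ARRDC2, ARRDC3, ARRDC4, MLX, MLXIP, MLXIPL, TXN and TXNRD1, out of 35810 genes with summed values. The list was chosen by the fast fall of TXNIP under LatB, that is, by its values after 3 h against the control at 0 h, so that contrast is described without a test. All 10 passed the filter on low counts.

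The cells came from the human embryonic stem cell line SA121 carrying an NGN3-GFP reporter, and had been differentiated to day 19 of a pancreatic protocol. The 16 bulk RNA libraries form 6 groups, of which 2 are controls. The control at 0 h has 3 libraries, and the control at 24 h has 2 and was given DMSO as vehicle. The other libraries had 0.5 µM LatB, with 3 libraries each at 3 h, 6 h and 24 h and 2 at 12 h. The sample tag of the control at 0 h also names DMSO, while the design text places its harvest ahead of any treatment, and the study's own account also speaks of a comparison with cells from before treatment. The control at 0 h is therefore taken here as untreated, with the tag unexplained. All libraries carry the reporter and stem from 1 line, and nothing states that replicates were separate differentiations, so p-values measure the spread between these samples only. In bulk RNA, fewer cells of a type and less RNA per cell cannot be told apart.

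TXNIP and the ARRDC proteins are alpha-arrestins, adaptors that bring ubiquitin ligases of the NEDD4 family to membrane proteins. TXNIP also binds reduced thioredoxin and lowers the amount of glucose transporter at the cell surface. Transcription of TXNIP and ARRDC4 is driven by MondoA (the product of MLXIP) or ChREBP (MLXIPL), each paired with MLX, which respond to glucose 6-phosphate and bind paired E-box-like sites in DNA. In beta cells TXNIP is known as a glucose-induced gene that promotes cell death.

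The DNA in front of TXNIP and ARRDC4, the genes with the lowest early values relative to control, is shown first, for sites like E boxes. Binding of these factors was not measured. TXNIP lies on the minus strand of chromosome 1 and ARRDC4 on the plus strand of chromosome 15 (GRCh38, sequences from RefSeq, GRCh38.p14). Each line gives the 250 bases before the start site, 5′ to 3′ on the strand of the gene, with every CACGNG or CNCGTG in capitals.
TXNIP, chr1:145996580-145996829, minus strand: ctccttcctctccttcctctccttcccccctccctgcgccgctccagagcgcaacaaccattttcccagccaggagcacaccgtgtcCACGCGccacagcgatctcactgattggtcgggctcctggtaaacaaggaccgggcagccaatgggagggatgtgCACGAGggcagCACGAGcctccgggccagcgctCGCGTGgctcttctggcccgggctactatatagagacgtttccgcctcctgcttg
ARRDC4, chr15:97960453-97960702, plus strand: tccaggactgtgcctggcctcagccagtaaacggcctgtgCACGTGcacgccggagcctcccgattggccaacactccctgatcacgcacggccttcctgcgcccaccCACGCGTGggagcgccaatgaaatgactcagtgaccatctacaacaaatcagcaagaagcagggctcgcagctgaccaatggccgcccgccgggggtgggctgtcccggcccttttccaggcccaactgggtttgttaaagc

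RefSeq windows of 300 bases, from 250 before to 50 after a start, were found for all 10 genes (14 windows) and searched on both strands. The TXNIP window held 4 CACGNG sites. It was the only one of the 14 windows with a pair 5 bases apart, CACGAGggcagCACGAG, which begins 88 bases before the start. Such a pair, with each site in either direction, occurred in 27 of 35116 promoters (0.0769%). ARRDC4 held 3 CACGNG sites, of which 2 overlap each other, and among the 3 was the full E box CACGTG, beginning 210 bases before the start. MLX also held a CACGTG, beginning 50 bases before its start, and 7.26% of all windows held one. A CACGNG was present for 7 of the 10 genes, counted by gene, with none for ARRDC1, MLXIP and MLXIPL. Counted by window, 30.5% of all windows held one. Some genes have several windows, so these figures cannot be set against each other. Of the 26 other genes with the kind of pair seen at TXNIP, 17 were tested. After 6 h of LatB 2 of these 17 were called higher and 5 lower than in the control at 0 h, where 43.3% of all genes were called. After 24 h 4 were called higher and 4 lower than in the control at 24 h, where 40.8% of all genes were called (21.9% higher and 18.8% lower).

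The libraries held 23609727 to 33515398 estimated reads. Defining progenitor genes were expressed, with PDX1 at 222 to 395 CPM (reads of a gene relative to the TMM-scaled library size) and SOX9 at 297 to 442 CPM, while PTF1A stayed at 0.0676 to 0.732 CPM. The libraries of LatB 12 h stood apart from each other, with a correlation of 0.967 between them against 0.980 to 0.986 in the other replicate pairs. In LatB 12 h replicate 2 the 4 stromal markers summed to 778 CPM, against 142 CPM in replicate 1, mostly from COL3A1 (684 CPM). Its 4 liver-type markers summed to 1436 CPM against 709 CPM, and its 7 progenitor markers to 1743 CPM against 2504 CPM. Results at 12 h are therefore also given without either library. The part of these markers in them was not tested.

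Levels of different genes were compared in TPM, which accounts for transcript length. In the control at 0 h TXN, the cytosolic thioredoxin, was the most abundant at 240.0 ± 17.4 TPM (SD, n = 3). TXNIP came next at 57.1 ± 1.87 TPM, and ARRDC1 at 51.9 ± 6.13 TPM was not separated from it. TXNRD1, the cytosolic thioredoxin reductase, was at 41.4 ± 2.81 TPM. ARRDC4 had a level of 24.5 ± 1.14 TPM, MLX of 21.4 ± 1.58 TPM and ARRDC3 of 20.4 ± 1.60 TPM, and MLX and ARRDC3 overlapped. MLXIP at 16.3 ± 1.5 TPM and MLXIPL at 15.4 ± 4.22 TPM overlapped as well, and ARRDC2 was lowest at 1.79 ± 0.0566 TPM. After 3 h of LatB TXNIP was at 3.26 ± 1.27 TPM, with ARRDC2 alone below it. Over the 6 groups the mean TPM of TXNIP spanned 17.5-fold from lowest to highest, that of ARRDC4 5.05-fold and that of ARRDC3 3.14-fold. The other 7 genes spanned 1.18-fold (MLX) to 1.69-fold (ARRDC2).

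TXNIP was low within 3 h of LatB and higher again at the later times, without reaching the control level. It measured 100.5, 95.9 and 93.6 CPM in the control at 0 h, and 91.1 and 90.6 CPM in the control at 24 h. With LatB it measured 4.12, 4.91 and 8.14 CPM at 3 h and 7.31, 6.89 and 6.72 CPM at 6 h. At 12 h the libraries gave 13.3 and 36.9 CPM, and at 24 h they gave 29.5, 71.1 and 42.8 CPM. The controls lay close together and all treated libraries were below all of them, while the late treated libraries spread far more widely than the early ones. Separation of this kind was common, since the groups did not overlap for 48.2% of all genes tested at 3 h, 57.4% at 6 h and 51.4% at 12 h against the control at 0 h, and for 63.9% at 24 h against the control at 24 h. Relative to the control at 0 h the fitted level was 5.92% at 3 h (log2 fold change -4.08, SE 0.39), 7.22% at 6 h (-3.79, SE 0.38) and 26.2% at 12 h (-1.93, SE 0.39). By size of fall TXNIP stood in place 44 of the 16705 genes tested at 3 h. Without LatB 12 h replicate 2 the value at 12 h was -2.87, and without replicate 1 it was -1.39. These 3 contrasts share the control libraries by which the genes were chosen and carry no test.

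**Figure D1:**
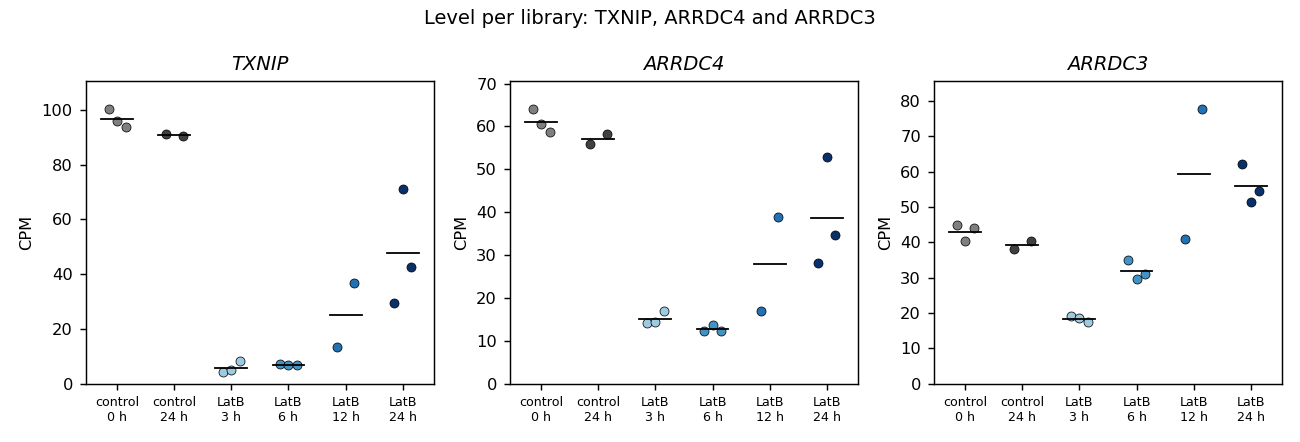
Level of TXNIP, ARRDC4 and ARRDC3 in CPM (vertical axes, from 0) in each of the 16 libraries (points) by group, with group means as lines. TXNIP and ARRDC4 are lowest at 3 and 6 h (TXNIP 4.12 to 8.14 CPM), and ARRDC3 is lowest at 3 h (17.6 to 19.2 CPM) and above both controls at 24 h.

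Contrasts that share no library with the 3 h contrast were tested with edgeR. The libraries of 6 h belong to the same fast fall for which the list was chosen. The p-values of TXNIP that use them are no independent support for the fall or for the rise after it. TXNIP was lower at 6 h than in the control at 24 h (log2 fold change -3.70, SE 0.40, adjusted p = 1.28e-05), at 7.68% of its level there. At 12 h it was at 27.9% of the control at 24 h (log2 fold change -1.84, SE 0.41, adjusted p = 0.00388). That contrast gave -2.78 without LatB 12 h replicate 2 and -1.30 without replicate 1, both called, but not when only the compared groups were fitted (adjusted p = 0.0978). TXNIP then rose under the drug, from 6 h to 24 h, 6.86-fold (log2 2.78, SE 0.38, adjusted p = 8.31e-05), with all 3 libraries at 24 h above all 3 at 6 h. Over all genes it stood in place 99 among the rises between these times.

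At 24 h TXNIP was at 52.7% of the matched vehicle (log2 fold change -0.92, SE 0.35), which did not pass the threshold (adjusted p = 0.0505). In 3 of 3 libraries it was below both controls, but the groups did not overlap for 63.9% of all genes in this contrast. Over 16 alternatives the adjusted p ran from 0.00937 to 0.166, and 6 of the 16 passed. LatB 24 h replicate 2 was the highest, with 71.1 CPM, and without it the log2 fold change was -1.33 (adjusted p = 0.00937). With that library kept, TXNIP was also called when a replicate block was fitted. Against the control at 0 h, whose libraries served to choose the genes, the value was -1.01 (SE 0.32), given without a test. That fit is among the 6 alternatives that passed, and it adds no support there. The 3 libraries of LatB 24 h also differed in cell markers. The 6 endocrine markers summed to 89.1, 253 and 234 CPM in replicates 1, 2 and 3, against 58.3 to 69.0 CPM in the control at 24 h, and the stromal markers to 190.1, 63.3 and 108 CPM. The part of these differences in the TXNIP level was not tested.

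ARRDC4, the closest paralogue of TXNIP, was low at the same times. It measured 64.2, 60.5 and 58.7 CPM in the control at 0 h and 55.9 and 58.3 CPM in the control at 24 h. With LatB it measured 14.1, 14.4 and 16.9 CPM at 3 h and 12.2, 13.8 and 12.4 CPM at 6 h. At 12 h the libraries gave 16.9 and 38.8 CPM, and at 24 h they gave 28.1, 52.9 and 34.6 CPM. All treated libraries lay below all controls, and the libraries with the higher TXNIP level at 12 h and 24 h had the higher ARRDC4 level too. At 3 h ARRDC4 was at 24.7% of the control at 0 h (log2 fold change -2.02, SE 0.26), given without a test.

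ARRDC4 fell at 6 h to 21.0% of the control at 0 h (log2 fold change -2.25, SE 0.26, adjusted p = 1.74e-05). At 12 h it was at 45.9% (log2 fold change -1.12, SE 0.28, adjusted p = 0.00740). Without LatB 12 h replicate 2 that value was -1.85, and without replicate 1 it was -0.66 and no longer called (adjusted p = 0.05003). It was also not called with only the compared groups (adjusted p = 0.0651). At 24 h ARRDC4 was at 67.6% of the vehicle, which did not pass (log2 fold change -0.57, SE 0.27, adjusted p = 0.108). Its libraries were lower in 3 of 3 cases, but the groups did not overlap for 63.9% of all genes in this contrast. Without LatB 24 h replicate 2 ARRDC4 passed (log2 fold change -0.86, adjusted p = 0.0182). From 6 h to 24 h under LatB ARRDC4 rose 3.01-fold (log2 1.59, SE 0.26, adjusted p = 0.000354). The effect of LatB at 24 h differed from that at 6 h by 1.69 on the log2 scale (SE 0.38, adjusted p = 0.00619).

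TXNIP and ARRDC4 were low and high in the same libraries. Pearson's r of their log2 CPM was 0.982 over the 16 libraries (Spearman's rho 0.941) and 0.959 over the 11 libraries with LatB, given as a description of libraries that share controls, times and composition. The ratio of TXNIP to ARRDC4 in CPM was 1.58 ± 0.0143 (SD, n = 3) in the control at 0 h and 1.59 ± 0.0540 (n = 2) in the control at 24 h. It was 0.372 ± 0.0991 (n = 3) at 3 h, 0.546 ± 0.0499 (n = 3) at 6 h, 0.867 ± 0.118 (n = 2) at 12 h and 1.21 ± 0.149 (n = 3) at 24 h. All 11 treated libraries had a smaller ratio than the 5 controls. The list was chosen by the fall of TXNIP, so these ratios are a description and carry no test.

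**Figure D2:**
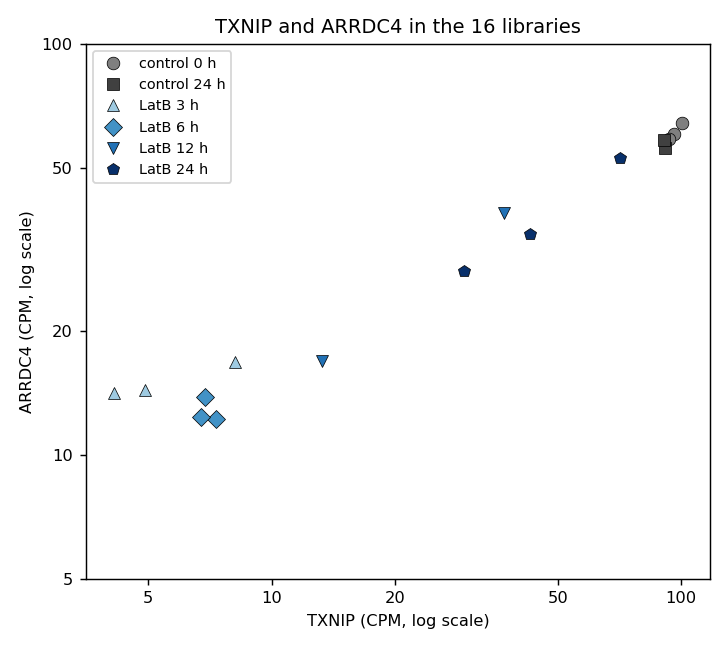
TXNIP (horizontal) against ARRDC4 (vertical), both in CPM on log axes, in the 16 libraries, with a symbol for each group. The 5 controls sit together at the upper right, the libraries of 3 and 6 h at the lower left, and those of 12 and 24 h between them (r = 0.982 on log2 CPM).

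ARRDC3, an adaptor best known for the ubiquitination of beta-adrenergic receptors, was low early and high late. It measured 44.8, 40.3 and 43.99 CPM in the control at 0 h and 38.1 and 40.3 CPM in the control at 24 h. With LatB it measured 19.2, 18.5 and 17.6 CPM at 3 h, 35.1, 29.7 and 31.1 CPM at 6 h, 41.0 and 77.9 CPM at 12 h, and 62.1, 51.4 and 54.6 CPM at 24 h. The libraries of 3 h lay below all others, and those of 24 h above all controls. At 3 h its level was 42.8% of the control at 0 h (log2 fold change -1.22, SE 0.17, no test). At 6 h it was at 74.3%, which did not pass (log2 fold change -0.43, SE 0.17, adjusted p = 0.0544). It passed at 6 h under DESeq2 and 4 other alternatives.

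At 12 h ARRDC3 had a log2 fold change of 0.47 (SE 0.18, adjusted p = 0.0591), which was -0.07 without LatB 12 h replicate 2 and 0.86 without replicate 1. Against the control at 24 h the value at 12 h was called (0.60, SE 0.20, adjusted p = 0.0336), but not without LatB 12 h replicate 2 (0.06, adjusted p = 0.735) or without either control (adjusted p = 0.159 and 0.0913). At 24 h ARRDC3 rose 1.43-fold over the vehicle (log2 0.51, SE 0.19, adjusted p = 0.0400). The call was lost under 8 of 16 alternatives, among them 4 of the 5 that leave out a library of either group (adjusted p up to 0.190 in all). The rise from 6 h to 24 h under LatB was 1.75-fold (log2 0.81, SE 0.17, adjusted p = 0.00190) and was called under all 16 alternatives. The effect at 24 h exceeded that at 6 h by 0.94 (log2, SE 0.25, adjusted p = 0.0161).

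ARRDC1, which recruits ESCRT proteins to bud vesicles from the cell surface, changed late and downward. It measured 44.7, 60.2 and 51.2 CPM in the control at 0 h and 55.5 and 47.4 CPM in the control at 24 h. With LatB it measured 55.0, 42.3 and 46.9 CPM at 3 h, 50.2, 49.6 and 47.0 CPM at 6 h, 42.8 and 32.8 CPM at 12 h, and 34.5, 35.0 and 35.6 CPM at 24 h. The early libraries overlapped the controls and those of 24 h lay below all of them. Its log2 fold change at 6 h, -0.09 (SE 0.12), did not pass (adjusted p = 0.595). At 12 h ARRDC1 was lower (log2 fold change -0.47, SE 0.14, adjusted p = 0.0181). That call was lost under 3 alternatives, among them leaving out LatB 12 h replicate 2 (-0.28). At 24 h it fell to 68.1% of the vehicle (log2 fold change -0.55, SE 0.13, adjusted p = 0.00505), and without the control 24 h replicate 1 this was -0.44 (adjusted p = 0.0785). From 6 h to 24 h it fell by 0.48 on the log2 scale (SE 0.12, adjusted p = 0.00701).

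ARRDC2, the least abundant of the family, ranged from 2.95 to 5.24 CPM (80 to 155 reads per library). It measured 3.27, 2.95 and 3.39 CPM in the control at 0 h and 5.07 and 5.24 CPM at 12 h, where the groups did not overlap. The rise at 12 h was 1.61-fold (log2 0.69, SE 0.16, adjusted p = 0.00397) and was called under all 15 alternatives, with 0.66 without LatB 12 h replicate 2 and 0.71 without replicate 1. It was not called against the control at 24 h (log2 0.44, SE 0.17, adjusted p = 0.0605). At 6 h it did not pass (log2 0.36, SE 0.14, adjusted p = 0.0557), and at 24 h the level was that of the vehicle within error (log2 0.00, SE 0.16, adjusted p = 0.990).

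The genes of the MondoA complex had fold changes far smaller than that of TXNIP. MLXIP, which encodes MondoA, measured 79.1, 84.0 and 78.2 CPM in the control at 0 h and 86.0 and 82.6 CPM in the control at 24 h. With LatB it measured 93.7, 86.7 and 91.4 CPM at 3 h, 95.2, 94.4 and 93.1 CPM at 6 h, 113 and 95.5 CPM at 12 h, and 107, 99.0 and 107 CPM at 24 h. All treated libraries lay above all controls. MLXIP was higher at 6 h (log2 fold change 0.23, SE 0.06, adjusted p = 0.00707), 12 h (0.37, SE 0.07, adjusted p = 0.000714) and 24 h (0.31, SE 0.07, adjusted p = 0.00244). At 12 h the value was 0.49 without LatB 12 h replicate 2 and 0.25 without replicate 1, both called. With an offset for transcript length the calls at 6 h (0.15, adjusted p = 0.216) and 24 h (0.14, adjusted p = 0.325) were lost, as they were in TPM. The call at 12 h was lost under 1 alternative (adjusted p = 0.0503). Against the control at 24 h MLXIP at 6 h was not called (0.16, SE 0.07, adjusted p = 0.0693), while at 12 h it was (0.31, adjusted p = 0.00559), a call lost without LatB 12 h replicate 1 (0.18, adjusted p = 0.0505), with the length offset and in TPM.

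MLX, the shared partner, measured 28.9, 31.1 and 27.4 CPM in the control at 0 h and 33.8, 35.8 and 35.6 CPM at 6 h. These groups did not overlap, and MLX was higher at 6 h (log2 fold change 0.27, SE 0.06, adjusted p = 0.00183). The call was lost under 3 alternatives, among them the length offset (0.19, adjusted p = 0.0668). Over all alternatives the value ran from 0.09 to 0.30, with an adjusted p of up to 0.335. It did not pass at 12 h (0.09, SE 0.06, adjusted p = 0.310; 0.16 without LatB 12 h replicate 2) or at 24 h (0.16, SE 0.06, adjusted p = 0.0518). MLX overlaps PSMC3IP on the other strand, which averaged 187 reads against 906 for MLX, and whether the counting used strand is not stated. MLXIPL, which encodes ChREBP, ranged from 15.8 to 39.5 CPM and was called in none of the tested contrasts by edgeR. At 12 h its libraries gave 39.5 and 20.7 CPM, for a log2 fold change of 0.57 (SE 0.25, adjusted p = 0.0985). Without LatB 12 h replicate 2 this was 0.96 and called (adjusted p = 0.00809), and without replicate 1 it was 0.03. By 24 h it stood at 0.03 (log2, SE 0.25, adjusted p = 0.945).

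TXN, the protein that TXNIP binds, was higher at 24 h, and at 6 h its call depended on the control used. It measured 67.2, 58.9 and 58.6 CPM in the control at 0 h, 56.7 and 56.3 CPM in the control at 24 h and 73.8, 72.8 and 70.8 CPM with LatB for 24 h, with no overlap. The rise was 1.28-fold (log2 0.36, SE 0.06, adjusted p = 0.000520) and was called under all 16 alternatives. At 6 h (log2 0.08, SE 0.06, adjusted p = 0.299) and at 12 h (log2 0.02, SE 0.06, adjusted p = 0.857) TXN did not pass against the control at 0 h. Against the control at 24 h it was called higher at 6 h (log2 0.20, SE 0.06, adjusted p = 0.0196) and not called at 12 h (log2 0.14, adjusted p = 0.125). The call at 6 h was lost without control 24 h replicate 1 (adjusted p = 0.0876), control 24 h replicate 2 (0.0887) or LatB 6 h replicate 3 (0.105), and also without scaling, without a filter and in TPM. Both libraries of the control at 24 h lay below all 3 of the control at 0 h (log2 -0.12, SE 0.06, adjusted p = 0.634). From 6 h to 24 h the rise was 1.12-fold (log2 0.16, SE 0.05, adjusted p = 0.0349), which 7 of 16 alternatives did not call. The effects at 24 h and 6 h, each against its own control, differed by 0.28 (log2, SE 0.08, adjusted p = 0.0256), a value that includes the difference between the controls.

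TXNRD1, which returns thioredoxin to its reduced form, was higher at 6 h than in the control at 0 h. It measured 84.0, 74.8 and 78.3 CPM in the control at 0 h and 106, 105 and 112 CPM at 6 h, with no overlap. The rise at 6 h was 1.36-fold (log2 0.44, SE 0.13, adjusted p = 0.0115), and 5 of 16 alternatives did not call it, TPM among them (adjusted p = 0.148 on log2(TPM + 1)). Against the control at 24 h it was not called (log2 0.31, SE 0.14, adjusted p = 0.0915). At 12 h the libraries gave 90.0 and 144 CPM. The log2 fold change there was 0.57 (SE 0.14, adjusted p = 0.00625). That call was lost under 4 alternatives, among them leaving out LatB 12 h replicate 2 (0.19). At 24 h TXNRD1 measured 111, 94.6 and 101 CPM against 84.3 and 88.5 CPM, which did not pass (log2 0.24, SE 0.14, adjusted p = 0.192).

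**Figure D3:**
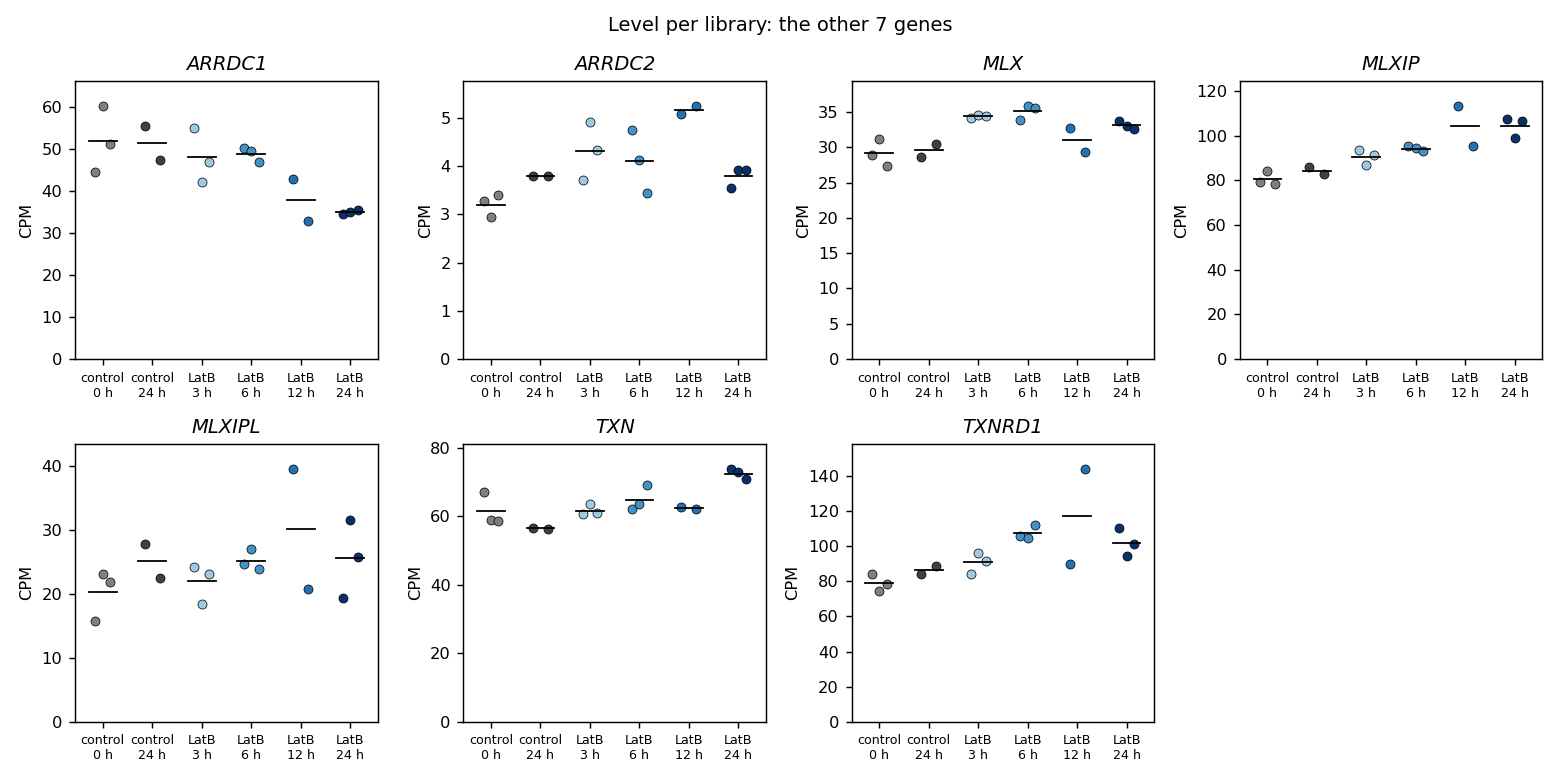
Level of the other 7 genes in CPM (vertical axes, from 0) in each of the 16 libraries (points) by group, with group means as lines. ARRDC1 is lowest at 24 h (34.5 to 35.6 CPM), TXN is highest at 24 h (70.8 to 73.8 CPM), and the libraries of 12 h differ most for TXNRD1 and MLXIPL.

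Counts over the 10 genes were read against all 16705 genes tested. At 3 h 3 of the 10 were higher and 3 lower than in the control at 0 h at an adjusted p under 0.05, where 31.6% of all genes were called (16.8% higher and 14.7% lower), and nothing is read from this count. At 6 h 3 were higher and 2 lower against a background of 43.3% (22.9% higher and 20.4% lower). At 12 h 3 were higher and 3 lower against 35.8% (19.1% higher and 16.8% lower), with 5 called without LatB 12 h replicate 2 and 6 without replicate 1. At 24 h 3 were higher and 1 lower against 40.8% (21.9% higher and 18.8% lower). Against the control at 24 h, 2 were higher and 2 lower at 6 h (background 41.3%, with 22.4% higher and 18.9% lower) and 3 higher and 3 lower at 12 h (34.1%, with 18.4% higher and 15.7% lower), the latter 6 becoming 3 without LatB 12 h replicate 2 and 4 without replicate 1. Without control 24 h replicate 1 the genes called numbered 2 in each of these 3 comparisons with the control at 24 h. With 10 genes these counts say nothing about the family as a group.

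No change was called without the drug. Between the controls at 24 h and 0 h edgeR and DESeq2 called 0 of the 10 genes, where 0.251% of all genes were called, and 0 had an unadjusted p under 0.05. The log2 fold changes were -0.09 for TXNIP (SE 0.35), -0.10 for ARRDC4 (SE 0.27) and -0.13 for ARRDC3 (SE 0.19). Even so, the control groups did not overlap for 5 of the 10 genes. TXNIP, ARRDC4 and TXN were lower at 24 h in all libraries, and ARRDC2 and TXNRD1 higher. The share of all genes separated in this way between the controls is not given. From 6 h to 24 h of LatB 4 genes rose (TXNIP, ARRDC4, ARRDC3 and TXN) and ARRDC1 fell, with 37.9% of all genes called. Between these times 52.9% of all genes had groups that did not overlap, and 19.0% were called higher and 18.9% lower. The effects of the drug at 24 h and at 6 h differed for 4 of the 10 genes, where 22.5% of all genes were called (11.4% upward and 11.1% downward), and for 2 without control 24 h replicate 1. These were ARRDC4, ARRDC3, TXN and TXNIP, of which TXNIP (2.87 on the log2 scale) enters with the control libraries that chose the list and is a description.

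**Figure D4:**
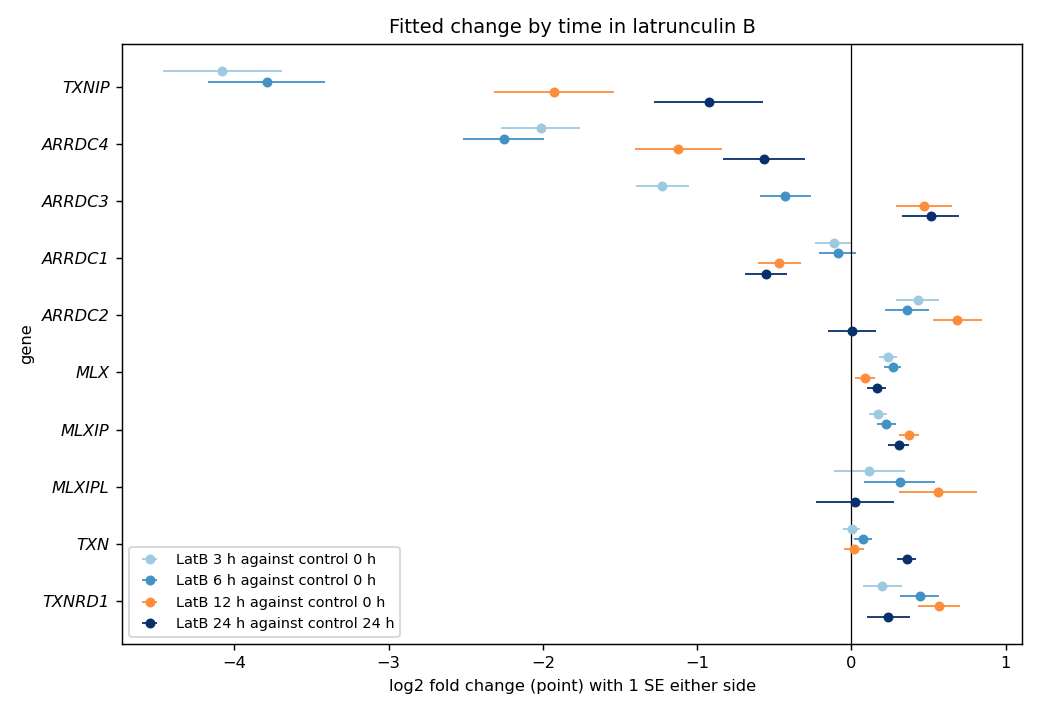
Fitted log2 fold change (horizontal axis) of the 10 genes (vertical axis) after 3, 6 and 12 h of LatB against the control at 0 h and after 24 h against the control at 24 h, with bars of 1 SE either side. TXNIP runs from -4.08 at 3 h to -0.92 at 24 h, ARRDC4 follows at about the same times, ARRDC3 changes sign, and the other 7 genes stay within 0.69 of 0.

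Transcripts were followed where they held at least 10% of the TPM of a gene. TXNIP-204 held 94.5% to 100% of TXNIP in every library, TXN-202 98.8% to 99.9% of TXN, and ARRDC4 has 1 transcript in the tables. A single transcript thus held nearly all of each of these genes. In MLX the retained-intron transcript MLX-206 held 17.0% ± 1.16 (SD, n = 3) in the control at 0 h and 16.6% ± 1.27 (n = 2) in the control at 24 h. With LatB it held 11.5% ± 4.33 (n = 3) at 3 h, 11.5% ± 2.85 (n = 3) at 6 h, 9.36% ± 0.0495 (n = 2) at 12 h and 9.76% ± 2.31 (n = 3) at 24 h. The treated libraries of 6, 12 and 24 h were all below the controls, and those of 3 h overlapped them. The share of the coding transcript MLX-203 was 60.8% ± 3.30 (n = 3) in the control at 0 h and 66.2% ± 1.07 (n = 2) in the control at 24 h. With LatB this share was 61.8% ± 8.53 (n = 3) at 3 h and 65.8% ± 5.19 (n = 3) at 6 h. It was 73.2% ± 0.884 (n = 2) at 12 h and 71.5% ± 0.620 (n = 3) at 24 h. In TXNRD1 the coding transcript TXNRD1-210 held 21.6% ± 1.57 (n = 3) in the control at 0 h, 30.5% ± 2.62 (n = 3) at 6 h and 38.0% ± 1.21 (n = 2) at 12 h. The control at 24 h (26.5% ± 0.446, n = 2) and LatB for 24 h (27.4% ± 3.93, n = 3) overlapped. Shares that salmon assigns between similar transcripts are estimates, and no test was run on them.

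Gene lists around the family were counted in the same fit, where the median log2 fold change of all genes was -0.01 at 6 h and 0.01 at 24 h. Over all genes 43.3% were called at 6 h (22.9% higher and 20.4% lower) and 40.8% at 24 h (21.9% higher and 18.8% lower), and with 10 to 20 genes tested per list nothing is read from a share near these. Of 15 further targets of MondoA or ChREBP, 12 were tested. At 6 h 4 of them were higher and 3 lower, and at 24 h 6 were higher and 0 lower, with a median log2 fold change of 0.12 at 6 h and 0.36 at 24 h (6 of 12 called, against 40.8% of all genes). They included RGS16, a brake on G-protein signalling (log2 3.17, SE 0.44, adjusted p = 0.000111, from 0.640 ± 0.197 to 5.76 ± 1.49 CPM), and SCD, a desaturase of fatty acids (log2 0.99, SE 0.09, adjusted p = 5.00e-06). RGS16 (log2 1.42, adjusted p = 0.00633) and SCD (0.44, adjusted p = 0.000546) were already higher at 6 h. ELOVL6, a fatty acid elongase, fell at 6 h (log2 -0.56, adjusted p = 0.00242) and rose at 24 h (0.63, adjusted p = 0.00245). KHK, the fructokinase, did likewise, with -0.69 (adjusted p = 0.00682) and 0.57 (adjusted p = 0.0307), at a mean of 1.98 CPM.

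Genes of glucose entry and phosphorylation moved in both directions at 24 h, with 5 of 12 higher and 4 lower (median log2 fold change 0.20), against 21.9% and 18.8% of all genes. SLC2A1, the basal glucose transporter GLUT1, rose at 6 h (log2 1.13, SE 0.15, adjusted p = 6.52e-05) and at 24 h (1.51, SE 0.18, adjusted p = 3.11e-05), from 43.8 ± 2.96 to 125 ± 8.27 CPM (SD, n = 2 and 3). SLC2A3 (GLUT3) fell at 24 h, from 172 ± 16.1 to 43.6 ± 7.83 CPM (log2 -1.98, SE 0.31, adjusted p = 0.000275). SLC2A2 (GLUT2) was higher at 6 h (log2 1.22, adjusted p = 0.0257) and lower at 24 h (-1.46, adjusted p = 0.0216), at a mean of 1.26 CPM.

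In the network of MYC, MAX and MLX, 5 of 10 genes were higher and 1 lower at 6 h (median log2 fold change 0.29), and 4 were higher and 1 lower at 24 h (0.16), where 43.3% and 40.8% of all genes were called. MYC was higher at 6 h (log2 2.26, SE 0.26, adjusted p = 1.61e-05) and at 24 h (1.44, SE 0.30, adjusted p = 0.00189). MYCN was lower at both times (-1.77, adjusted p = 7.75e-08, and -1.14, adjusted p = 6.67e-06). MYCL (0.46) and MGA (0.35), a MAX-binding repressor, were higher at 24 h with adjusted p of 0.00145 and 0.000242.

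Of 22 genes of the thioredoxin and glutaredoxin system, 20 were tested, and at 24 h 11 were higher and 4 lower (median log2 fold change 0.16), against 21.9% and 18.8% of all genes. TXNDC17 (log2 0.67, adjusted p = 1.17e-05) and the methionine sulfoxide reductase MSRB1 (0.74, adjusted p = 0.000185) were higher, and MSRB3 was lower (-1.52, SE 0.30, adjusted p = 0.00147). Of 14 NRF2 targets 5 were higher at 6 h (median log2 fold change 0.11) and 8 at 24 h (0.30), and 0 were lower, where 22.9% and 21.9% of all genes were called higher and 20.4% and 18.8% lower. GCLC, the catalytic subunit of glutathione synthesis, was higher at 6 h (0.64, adjusted p = 1.27e-05) and 24 h (0.47, adjusted p = 0.000476). SRXN1, which restores peroxiredoxins, was higher by 0.53 at both times (adjusted p = 0.000689 and 0.00178).

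Among 14 partners of alpha-arrestins, 13 were tested. At 6 h 6 were higher and 1 lower, and at 24 h 3 were higher and 3 lower (median log2 fold change -0.04), where 43.3% and 40.8% of all genes were called. The ubiquitin ligase HECW2 was higher at 24 h (log2 1.60, SE 0.14, adjusted p = 3.48e-06), as were WWP2 (0.42, adjusted p = 0.000398) and the beta-arrestin ARRB2 (0.25, adjusted p = 0.0301). NEDD4L was lower (-0.47, SE 0.07, adjusted p = 0.000209).

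**Figure D5:**
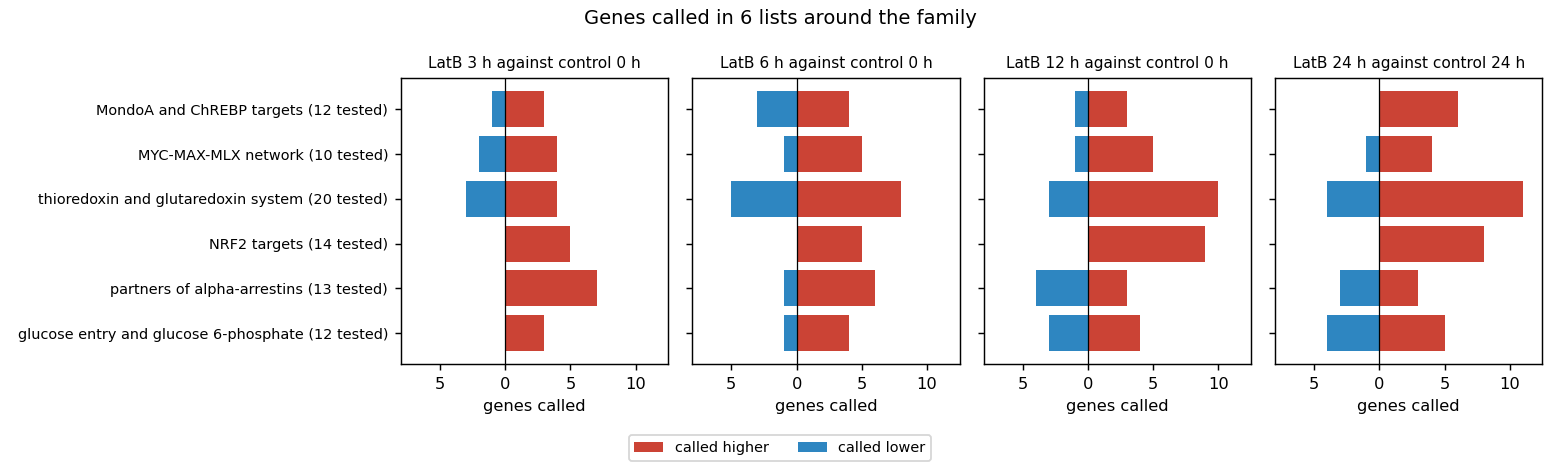
Number of genes called higher (red, to the right) and lower (blue, to the left) at an adjusted p under 0.05 in 6 gene lists, for LatB at 3, 6 and 12 h against the control at 0 h and at 24 h against the control at 24 h. At 24 h the list of MondoA and ChREBP targets has 6 higher and 0 lower of 12 tested, and glucose entry has 5 higher and 4 lower of 12, where 21.9% of all genes were called higher and 18.8% lower.

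The genes whose log2 CPM followed TXNIP most closely over the 16 libraries were sought among 10429 genes outside the family. They were TASOR, a subunit of the HUSH silencing complex (r = 0.977), CETN3, a centrin (0.974), PAQR8, a membrane receptor (0.969), PAIP2B, a regulator of translation (0.956), and BIVM (0.952). ARRDC4, at 0.982, was closer than any of them. TASOR was at 102 ± 4.48 CPM (n = 3) in the control at 0 h, 56.7 ± 1.41 (n = 3) at 3 h and 89.2 ± 1.58 (n = 3) at 24 h. The most opposite genes were KDM2A, a histone demethylase (r = -0.980), FOXO1, a transcription factor that insulin keeps out of the nucleus (-0.977), and TIPARP, an ADP-ribosyltransferase (-0.974). FOXO1 was at 47.6 ± 1.60 CPM (n = 3) in the control at 0 h, 127 ± 4.90 (n = 3) at 3 h and 59.1 ± 2.82 (n = 3) at 24 h. On log2(TPM + 1) the correlation of KDM2A was -0.81 and that of TASOR 0.925, while those of the other 6 moved by at most 0.02. Of the 9 other genes of the family MLX was the most opposite (r = -0.817). These are descriptions over libraries that fall into control and treated groups.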

How the data were processed

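Pancreatic progenitors were sequenced as bulk poly(A) RNA in 16 libraries. The authors deposited, for each library, a salmon table of 177456 transcripts with estimated counts, which need not be whole, and TPM, and salmon 1.3.0 is named in the submitters' processing notes. The methods of the study describe STAR gene counts instead, so the upstream settings are uncertain. A table of comparisons made by the authors, with DESeq2 fold changes, p-values and 16 per-sample columns, was not used.

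Each transcript was assigned to its gene in GENCODE 44 (GRCh38), ignoring identifier versions. Of 177456 transcripts 165533 matched, leaving out 2.92% to 3.17% of the reads of a library. Estimated counts were summed per gene and rounded. Tests used edgeR 4.0.16 in R 4.3.3 (two-sided quasi-likelihood test, TMM factors 0.947 to 1.05, filterByExpr, all 6 groups in one fit, 16705 genes), with Benjamini-Hochberg adjustment over all genes and calls at an adjusted p under 0.05. SE is the absolute log2 fold change divided by the square root of F. CPM is scaled to TMM library sizes. The script was tested on simulated data.

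The 10 genes, the gene lists and the tests were chosen with earlier results of these data known. All 10 genes are named, with at most 4 per list, those with the largest change called at 24 h, and the 5 genes most like TXNIP and the 3 most opposite by Pearson's r, among genes with a mean log2 CPM of at least 3. Samples with the same replicate number did not deviate together (2 of 36 pairs had r over 0.1), so no block was used. Alternatives were DESeq2 1.42.0, other scalings and filters, a length offset, limma 3.58.1 on log2(TPM + 1) and log2(TPM + 0.1), a replicate block, narrower fits, stricter thresholds, another control and leaving out each library. One gene that this rule names is not reported here. The comparison of protein sequences was not made.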

Additional observations from a re-analysis of the deposited data

Results flagged for a closer look

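For 3 genes the effect of LatB at 24 h, measured against the control at 24 h, differed from its effect at 6 h, measured against the control at 0 h, by a test of the difference itself in edgeR. ARRDC4 differed by 1.69 on the log2 scale (SE 0.38, adjusted p = 0.00619), from -2.25 at 6 h to -0.57 at 24 h. ARRDC3 differed by 0.94 (SE 0.25, adjusted p = 0.0161), from -0.43 to 0.51, with none of these libraries overlapping their controls. Such groups did not overlap for 57.4% of all genes at 6 h and 63.9% at 24 h. TXN differed by 0.28 (SE 0.08, adjusted p = 0.0256), from 0.08 to 0.36, while against the control at 24 h its value at 6 h was 0.20. The TXN call was lost under 5 of 21 alternatives and the ARRDC3 call under 3, while the ARRDC4 call was kept under all 21. The groups hold 2 or 3 libraries each, too few for a check of single libraries that stand apart within a group.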

How the results depend on the processing

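Across the values of single genes, 880 of 1053 alternative values kept their direction and their side of the threshold, 96 kept the direction but were no longer called, 29 became called and 48 changed sign. None of the values that changed sign was called by edgeR with the settings of the report. The cause of these changes was not tested.

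The count of genes called moved by over 1.5 times in these cases. Requiring a log2 fold change of at least 1 left 3 of 6 genes at 3 h, 2 of 5 at 6 h, 2 of 6 at 12 h, 0 of 4 at 24 h, 2 of 4 at 6 h and 2 of 6 at 12 h against the control at 24 h, 2 of 5 from 6 h to 24 h, and 2 of 4 for the difference of effects. An adjusted p under 0.01 left 2 of 6 at 12 h against the control at 24 h and 2 of 4 for the difference. Without scaling 2 of 4 remained at 6 h against the control at 24 h. The length offset gave 3 at 6 h and 3 at 12 h against the control at 24 h. Both TPM fits gave 3 at 3 h, 2 at 6 h, 2 at 24 h, and 2 and 3 at 6 h and 12 h against the control at 24 h. Fitting only the compared groups gave 3 at 12 h, and against the control at 24 h 7 at 6 h and 0 at 12 h.

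Leaving out 1 library at a time gave 2 to 6 genes at 24 h, 2 to 4 at 6 h and 2 to 4 at 12 h against the control at 24 h, and 2 to 5 for the difference. Control 24 h replicate 1 gave the lowest count of 2 in each of these. Without scaling the share of called genes that were higher, over all genes, moved from 53.3% to 36.2% at 3 h, from 52.8% to 37.7% at 6 h, from 54.3% to 36.8% at 6 h against the control at 24 h, from 50.1% to 73.8% between 6 h and 24 h, and from 50.6% to 72.3% for the difference of effects. On log2(TPM + 1) these shares were 38.0%, 36.4%, 36.7%, 66.7% and 63.3%. Without scaling the median log2 fold change of all genes was 0.137 between 6 h and 24 h, -0.119 at 6 h against the control at 24 h, and 0.119 for the difference of effects. Over all genes 724 were called at 12 h against the control at 24 h when only these groups were fitted, against 5697, and 2828 against 5988 at 12 h against the control at 0 h. On log2(TPM + 1) 3624 were called at 12 h against the control at 24 h, and 2159 for the difference of effects against 3754, where the length offset gave 2214. On log2(TPM + 0.1) 3981 were called at 12 h against the control at 0 h. Requiring a log2 fold change of at least 1 left 614 of 5271 genes at 3 h, 1033 of 7230 at 6 h, 1266 of 5988 at 12 h and 1213 of 6809 at 24 h, and an adjusted p under 0.01 left 3400 at 3 h, 3738 at 12 h and 4484 at 24 h. Between the controls edgeR called 42 genes, DESeq2 267, the fit of these groups alone 218, and the other settings 2 to 91. Where an arm was left with 1 library, that library was assumed to vary like those of the other groups.

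With the replicate block, which the data did not support as a pairing (median r -0.0231 over 36 pairs), the counts were 5 of 6 called at 3 h and 4 of 6 at 12 h against the control at 24 h, 4 of 5 from 6 h to 24 h, and as in the report elsewhere. TXNIP at 24 h was then called (log2 -1.02, adjusted p = 0.0331) and ARRDC3 was not (0.53, adjusted p = 0.0640).

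The sign changes were as follows, with ARRDC3 at 12 h (0.47 in the report) the largest value among them. TXN at 3 h was -0.0085 with DESeq2, -0.0087 with RLE scaling, -0.075 without scaling, -0.0090 without a filter, -0.012 with at least 50 counts, and -0.047 to 0.071 when libraries were left out. TXN at 6 h was -0.016 without scaling, and at 12 h it ran from -0.030 to 0.085 when libraries were left out. ARRDC2 at 24 h was -0.0042 with DESeq2, -0.0047 with RLE, -0.017 without a filter, -0.015 with at least 50 counts, -0.11 with the length offset, -0.086 and -0.12 in TPM, -0.0096 with only the compared groups, and -0.021 to 0.051 when libraries were left out. From 6 h to 24 h ARRDC2 was 0.021 without scaling and ran from -0.22 to 0.0059. Over those times MLX was 0.052 without scaling, and TXNRD1 was 0.061 without scaling and 0.036 and 0.037 in TPM. MLX at 12 h was -0.017 with the length offset and -0.015 in both TPM fits. MLXIP at 6 h against the control at 24 h was -0.041 and -0.043 in TPM. MLXIPL at 24 h was -0.23 with the length offset, -0.25 and -0.27 in TPM, and -0.15 to 0.19 when libraries were left out. MLXIPL from 6 h to 24 h was -0.13, -0.070 and -0.075 under the same settings and -0.16 to 0.19. MLXIPL at 3 h was -0.19 against the control at 24 h and -0.034 to 0.21 when libraries were left out. ARRDC1 at 6 h ran from -0.19 to 0.014, and ARRDC3 at 12 h from -0.070 (without LatB 12 h replicate 2) to 0.86. In reads in place of TPM the share of MLX-206 was 19.4% in the control at 0 h and 10.6% at 24 h of LatB, and that of TXNRD1-210 at 12 h was 45.4%.

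With 2 libraries at 12 h and in the control at 24 h, and ARRDC2 resting on 80 to 155 reads, small changes at these points could not be resolved. No vehicle libraries of 3, 6 or 12 h were used here, so time in culture and drug cannot be told apart at those times beyond what the controls at 0 h and 24 h show.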
